A study of Saccharomyces cerevisiae with 34 samples.

Results

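Genes for proteins and glucan of the budding yeast cell wall were followed here through chemical inhibition of Kin28, the kinase of the general transcription factor TFIIH. They were taken by gene name, with no measured value in the rule, and are the 10 genes FKS1, PSA1, GAS1, BGL2, CWP1, CWP2, CCW12, CCW14, SED1 and CIS3 out of the 5368 S. cerevisiae open reading frames in the deposited count table. The wall is a mesh of beta-1,3-glucan and beta-1,6-glucan with some chitin, overlaid by mannoproteins. Some mannoproteins reach the wall through a glycosylphosphatidylinositol (GPI) anchor and are moved to beta-1,6-glucan, and others, the PIR proteins, are bound to beta-1,3-glucan. Growing yeast builds new wall in every bud, so the genes for its main parts are transcribed strongly in dividing cells. Of the 10 genes, 9 passed the filter on low counts (at least 10 reads in enough libraries); CCW12 did not, and it is treated apart.

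The strains were all BY4741 derivatives with wild-type KIN28 (WT) or with the kin28as or kin28is allele, whose mutations the labels do not describe. Cells grew at 30 °C in histidine dropout medium with 2% dextrose and were held for 1 h in DMSO, the solvent, in 1-NAPP-1, a reversible inhibitor, or in CMK, an irreversible one; replicates numbered 1 carry a dose label of 2 µM and the others one of 5 µM. RNA was labelled with 5 mM 4-thiouracil for 6 min, S. pombe cells were added at 1 to 6 S. cerevisiae cells, and RNA was sequenced either as extracted (total) or after biotinylation and streptavidin capture of labelled RNA (nascent). The nascent libraries were 2 for each WT treatment, 3 for kin28is in DMSO, 3 in 1-NAPP-1 and 4 in CMK, and 1 for each kin28as treatment (DMSO or 1-NAPP-1); total RNA had 2 libraries for each WT and kin28is treatment and 1 for each kin28as treatment. A WT DMSO sample without 4-thiouracil gave 1 nascent and 1 total library. Nothing in the labels says whether replicates came from separate cultures, and the spread that the p-values rest on may therefore be technical.

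Reads per library ranged from 517887 to 15568445 in nascent RNA and from 2312861 to 9646457 in total RNA, and S. cerevisiae reads per S. pombe read from 0.144 to 45.8 and from 1.02 to 4.48. In the nascent libraries with 4-thiouracil this quotient ran from 4.71 to 45.8 in the 2 µM set and from 0.277 to 4.15 in the 5 µM set, so levels per S. pombe read were compared within a dose set. The shallowest nascent libraries were kin28is 1-NAPP-1 replicate 2 (517887 reads), WT DMSO replicate 2 (830598) and kin28is CMK replicate 2 (953317). The 5 MATa marker genes in the table summed to 988 to 2763 reads per 1000000 S. cerevisiae reads in nascent libraries with 4-thiouracil, against 36.0 to 149 for the MATalpha markers. The loci URA3, LEU2, HIS3 and MET17, usually deleted in BY4741, summed to 579 in nascent kin28is CMK replicate 2 and to 441 in the unlabelled nascent library. The median over the nascent libraries with 4-thiouracil was 50.7. URA3 alone was at 359 and 355 in these 2 libraries, against a median of 0.87. HIS3 was at 220 and 52.9, against a median of 47.8, and the medium lacked histidine. The part of this in the results was not tested.

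The promoter windows of 4 genes are printed because the results turn on them: PSA1, GAS1 and CIS3 were called lower with CMK in both nascent and total RNA, and SED1 in neither. Each window is the coding strand from 400 to 101 bases before the start codon, 300 bases, read from RefSeq's sacCer3 (R64) genome. Capitals mark matches to the motifs searched on both strands: the TATA box in 8 forms (TATAAAAA, TATAAAAG, TATAAATA, TATAAATG, TATATAAA, TATATAAG, TATATATA and TATATATG), CTA followed by TAG after 4 free bases, CNCGAAA and ACGCGT. PSA1 lies at chrIV:356860-357159 (minus strand), GAS1 at chrXIII:886603-886902 (plus), CIS3 at chrX:123049-123348 (minus) and SED1 at chrIV:600393-600692 (plus).
PSA1: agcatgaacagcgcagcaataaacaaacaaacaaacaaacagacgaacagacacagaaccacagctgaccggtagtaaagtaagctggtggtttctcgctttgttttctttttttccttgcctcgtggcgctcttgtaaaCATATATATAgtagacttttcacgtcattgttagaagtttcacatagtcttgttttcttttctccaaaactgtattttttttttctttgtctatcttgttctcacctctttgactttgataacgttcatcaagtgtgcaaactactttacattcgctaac
GAS1: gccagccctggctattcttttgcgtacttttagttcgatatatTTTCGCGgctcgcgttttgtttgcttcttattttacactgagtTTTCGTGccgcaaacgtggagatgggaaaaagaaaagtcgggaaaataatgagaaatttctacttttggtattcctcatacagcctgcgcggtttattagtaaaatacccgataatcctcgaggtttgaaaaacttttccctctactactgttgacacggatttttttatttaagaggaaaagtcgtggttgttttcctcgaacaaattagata
CIS3: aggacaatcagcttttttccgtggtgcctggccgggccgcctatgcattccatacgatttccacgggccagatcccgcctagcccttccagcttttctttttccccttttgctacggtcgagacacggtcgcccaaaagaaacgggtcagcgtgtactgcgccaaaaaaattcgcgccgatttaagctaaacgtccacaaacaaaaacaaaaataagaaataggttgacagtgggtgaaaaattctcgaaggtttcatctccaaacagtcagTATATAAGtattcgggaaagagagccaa
SED1: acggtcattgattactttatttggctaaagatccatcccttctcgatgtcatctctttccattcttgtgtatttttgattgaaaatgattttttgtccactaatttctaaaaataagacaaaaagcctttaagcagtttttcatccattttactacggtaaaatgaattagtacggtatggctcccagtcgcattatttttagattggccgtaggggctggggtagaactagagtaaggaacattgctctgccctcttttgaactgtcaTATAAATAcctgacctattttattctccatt
The PSA1 window held overlapping TATA forms 260 and 258 bases before the start codon, CIS3 held one at 128 bases and SED1 one at 131. GAS1 held none, and its capitals are CNCGAAA matches at 357 and 314 bases. A TATA form was also present for CWP2, CCW12 and CCW14, and none for FKS1, BGL2 and CWP1; 37.4% of 6001 promoter windows held one. CNCGAAA was found for FKS1, GAS1, CWP2 and CCW12 (15.5% of all windows), the CTA and TAG pair for BGL2, CWP1 and CCW14 (5.53%; in CCW14 it overlaps the TATA form) and ACGCGT for none of the 10 (3.95%). The TATA form was thus present both in PSA1 and in SED1, and was not matched in this window of GAS1.

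CCW12 (YLR110C, chrXII:369697-370098, 402 coding bases) encodes a small, heavily glycosylated GPI wall protein of the bud. It was listed at or near 0 throughout: 9 reads were counted over the 19 nascent libraries, 14 of which had 0, and 30 reads over the 15 total libraries, 10 of which had 0. No library held more than 13. CCW12 has a close relative, CCW22 (YDR134C, chrIV:721071-721481), annotated as a pseudogene and not analysed here. The 2 coding sequences differed at 52 of the aligned positions and in 33 gap columns, with 86.7% identity outside gaps and a longest identical run of 22 bases. Their first 150 coding bases (chrXII:369949-370098 and chrIV:721332-721481, both minus strand) are printed to show how reads from them would differ, with differing bases in capitals.
CCW12: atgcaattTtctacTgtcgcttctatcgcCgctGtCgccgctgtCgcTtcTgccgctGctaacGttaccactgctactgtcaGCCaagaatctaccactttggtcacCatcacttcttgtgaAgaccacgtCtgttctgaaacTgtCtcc
CCW22: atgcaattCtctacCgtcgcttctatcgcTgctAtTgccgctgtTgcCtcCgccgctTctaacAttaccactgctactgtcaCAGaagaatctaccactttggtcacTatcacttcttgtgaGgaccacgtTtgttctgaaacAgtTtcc
None of the 303 windows of 100 bases in CCW12, the length of the reads, occurred a further time in the genome. The treatment of reads with several matches is not stated in these sources, and the cause of the low count was not tested. No fold change is given for CCW12.

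Per coding length, the genes of the group differed widely in WT cells held in the solvent. In WT DMSO nascent RNA, mean levels in reads per 1000000 S. cerevisiae reads and per kilobase of coding sequence (RPKM, n = 2, ± SD) were 574 ± 370 for PSA1, 514 ± 18.9 for SED1, 404 ± 213 for CWP2 and 332 ± 181 for BGL2. GAS1 at 277 ± 7.82, FKS1 at 276 ± 20.5, CIS3 at 230 ± 20.4 and CCW14 at 163 ± 72.1 followed, and CWP1 was lowest of the 9 at 35.0 ± 7.74. The ranges of the 2 libraries overlapped between each pair of neighbours from PSA1 to FKS1, but not between FKS1 and CIS3, CIS3 and CCW14, or CCW14 and CWP1. PSA1, SED1, CWP2, BGL2, GAS1, FKS1 and CIS3 each stood above at least 86.1% of 5241 genes. In total RNA CWP2 came first at 1784 ± 932 RPKM, then SED1 at 898 ± 34.8, PSA1 at 748 ± 60.8, BGL2 at 712 ± 3.90 and GAS1 at 363 ± 86.0. CIS3 at 269 ± 7.21, FKS1 at 226 ± 15.2, CCW14 at 182 ± 18.0 and CWP1 at 75.9 ± 14.1 completed the total RNA order. Of the neighbours in total RNA, PSA1 and BGL2 overlapped and the others did not. The wide CWP2 value came from libraries of 314 and 682 CPM (reads per 1000000 S. cerevisiae reads).

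**Figure D1:**
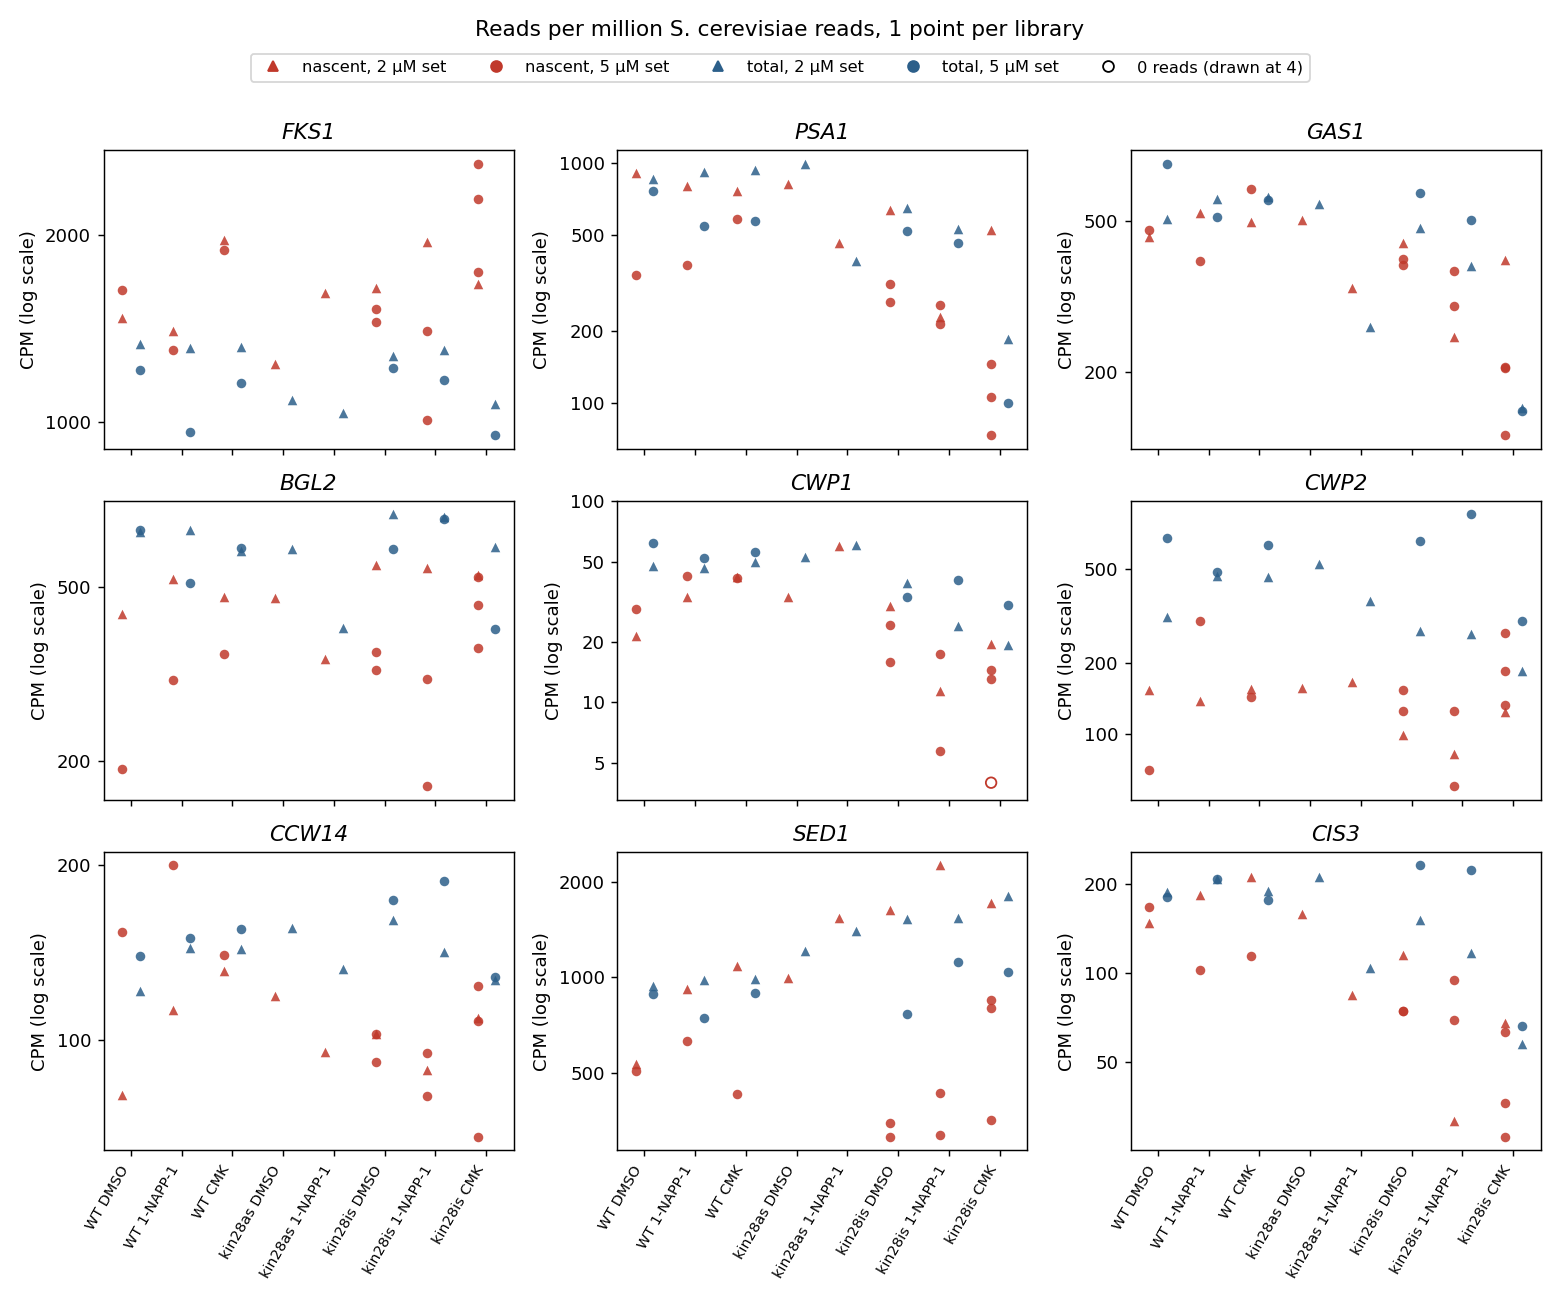
Level of each of 9 wall genes in every library, in reads per 1000000 S. cerevisiae reads on a log axis, by strain and treatment; red is nascent and blue total RNA, triangles are the 2 µM set, circles the 5 µM set, and an open symbol is a library with 0 reads. In total RNA the kin28is CMK libraries of PSA1 (184 and 99.6), GAS1 (161 and 158) and CIS3 (57.4 and 66.1) lie below every other total library of the same gene. How many of all genes do so was not counted.

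In kin28is cells given 5 µM CMK, newly made RNA of the wall genes fell relative to the S. pombe RNA added per cell: 8 of the 9 tested genes were called lower and none higher, by edgeR's quasi-likelihood test with Benjamini-Hochberg adjustment at 0.05. Over all genes 70.5% were called lower in the same fit. The median log2 change of the wall genes was -1.64, beside -1.66 over all 5206 genes tested, so the fall of the wall genes was not larger than that of the median gene. PSA1 and GAS1 were the most strongly called, and SED1 was the member not called. A lower level per S. pombe read can come, among other things, from fewer S. cerevisiae cells or from less RNA per cell, and the source was not tested. In kin28is replicate 2, S. cerevisiae reads per S. pombe read were 1.21 in DMSO and 0.513 with CMK in nascent RNA. In total RNA they were 1.02 and 1.35 in replicate 2, and 4.48 and 3.61 at 2 µM.

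Among the synthesis genes, PSA1 (YDL055C, chrIV:355674-356759), the GDP-mannose pyrophosphorylase that makes the sugar donor for mannoproteins, stood at 377 and 455 reads per 1000000 S. pombe reads in DMSO replicates 2 and 3 and at 74.6, 37.4 and 29.2 in CMK replicates 2 to 4. The highest CMK library was below the lowest DMSO library. How many of all genes separated in this way was not counted, here or for the genes below. PSA1 fell 8.90-fold (log2 -3.15 ± 0.57, SE; edgeR adjusted p = 4.86e-06). FKS1 (YLR342W, chrXII:809997-815627), a catalytic subunit of beta-1,3-glucan synthase, had 1752 and 2620 in DMSO and 895, 1164 and 723 in CMK, also without overlap. Its fall was smaller, 2.33-fold (log2 -1.22 ± 0.47; edgeR adjusted p = 0.0166).

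Of the enzymes that rework glucan chains in the wall, GAS1 (YMR307W, chrXIII:887003-888682), a GPI-anchored beta-1,3-glucanosyltransferase, had 463 and 687 reads per 1000000 S. pombe reads in DMSO and 69.8, 104 and 56.9 in CMK. It fell 7.44-fold (log2 -2.89 ± 0.55; edgeR adjusted p = 1.19e-05), and the groups did not overlap. BGL2 (YGR282C, chrVII:1057783-1058724), a soluble endo-beta-1,3-glucanase, had 390 and 613 in DMSO and 270, 231 and 101 in CMK. The BGL2 groups were also apart, with a log2 change of -1.31 ± 0.55 (edgeR adjusted p = 0.0271).

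The wall proteins ran from CWP1, at log2 -2.97, to SED1, at -0.81. CIS3 (YJL158C, chrX:122265-122948), a PIR protein bound to beta-1,3-glucan, had 89.8 and 128 reads per 1000000 S. pombe reads in DMSO and 14.3, 32.0 and 10.01 in CMK. It fell 5.92-fold (log2 -2.57 ± 0.63; edgeR adjusted p = 0.000483). The GPI protein CWP1 (YKL096W, chrXI:261132-261851) fell by 2.97 ± 0.85 on the log2 scale (edgeR adjusted p = 0.00211) from 19.2 and 41.7 to 0, 6.67 and 4.01, the lowest levels of the 9 genes. The 0 came from the shallow CMK replicate 2, where a count of 0 allows up to 9.28 CPM (counting error only). Its neighbour CWP2 (YKL096W-A, chrXI:259253-259531), another GPI protein, fell by 1.22 ± 0.58 (adjusted p = 0.0483) from 151 and 266 to 95.2, 136 and 36.9. CCW14 (YLR390W-A, chrXII:903724-904440), also a GPI protein, fell by 1.64 ± 0.59 (adjusted p = 0.0114) from 123 and 158 to 63.5, 54.7 and 18.8. Neither CWP2 nor CCW14 overlapped between the groups, and how many of all genes did not was not counted. SED1 (YDR077W, chrIV:600793-601809), a GPI protein abundant in stationary cells, had 381 and 602 in DMSO and 183, 431 and 222 in CMK. These overlapped, and its log2 change of -0.81 had a 95% interval of -1.83 to 0.22 (edgeR adjusted p = 0.147).

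These calls depended on single libraries and on the fit. With the replicate number as a block at 5 µM, 4 of the 8 stayed called (PSA1, GAS1, CWP1 and CIS3), and FKS1 (adjusted p = 0.0995), CCW14 (0.0771), BGL2 (0.155) and CWP2 (0.235) did not. Without kin28is DMSO replicate 3 only PSA1 and GAS1 of the 8 were called, and without CMK replicate 4 the count was 5. With all 16 WT and kin28is nascent libraries and a term for the dose set, 0 members and 0% of 5212 genes were called by edgeR (4 of 9 members had an unadjusted p below 0.05). Without CMK replicate 2, the library with the high URA3 reads, the count was 7.

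The share of a gene among S. cerevisiae reads does not use the S. pombe RNA and compares a gene with the rest of the transcriptome. On this scale PSA1 and GAS1 were called lower in the same 5 µM libraries, and no wall gene was called higher; 2.09% of all genes were called lower. PSA1 stood at 312 and 264 CPM in DMSO and at 145, 73.5 and 106 in CMK, a 2.85-fold fall (log2 -1.51 ± 0.27; edgeR adjusted p = 0.0131). GAS1 went from 384 and 398 CPM to 136, 205 and 206, a 2.24-fold fall (log2 -1.16 ± 0.26; edgeR adjusted p = 0.029). Both genes were without overlap between DMSO and CMK, which was not counted over all genes. CIS3 had 74.4 and 74.2 CPM in DMSO and 27.9, 63.0 and 36.2 in CMK, a log2 difference of -0.89 ± 0.33 that was not called (adjusted p = 0.135). SED1 had 316 and 350 CPM in DMSO and 356, 848 and 803 in CMK, all 3 above DMSO, with a log2 difference of 0.95 ± 0.36 (adjusted p = 0.143). The FKS1 share was also higher in every CMK library, 1745, 2290 and 2612 CPM against 1452 and 1520, without a call (log2 0.51 ± 0.32, adjusted p = 0.377). Without DMSO replicate 2, DMSO replicate 3 or CMK replicate 3, 0 wall genes were called on the share scale; without CMK replicate 2 the count was 3, and SED1 was then called higher at log2 1.27 (adjusted p = 0.0158).

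**Figure D2:**
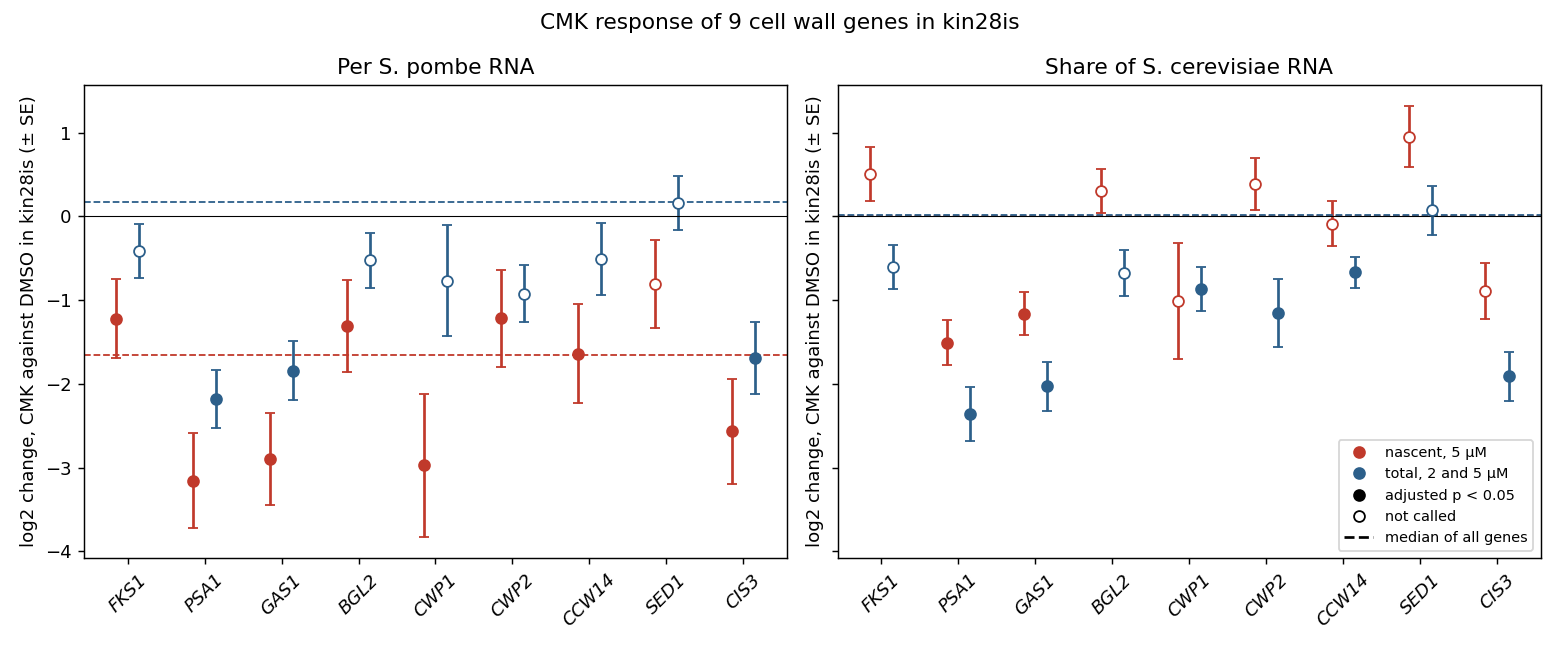
Log2 change of 9 wall genes in kin28is cells given CMK against DMSO, with SE bars, per S. pombe RNA (left) and as a share of S. cerevisiae reads (right), in nascent and total RNA; filled symbols have an adjusted p below 0.05 and dashed lines are the medians over all genes. PSA1, GAS1 and CIS3 lie below the other genes in total RNA on both scales, at -2.18, -1.84 and -1.69 per S. pombe RNA.

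The unlabelled WT library gave the level of each gene that passed the capture without 4-thiouracil. In reads per 1000000 S. pombe reads it held 240 of FKS1, 182 of SED1, 149 of CWP2, 133 of GAS1, 116 of PSA1, 106 of BGL2, 28.6 of CCW14, 26.4 of CIS3 and 13.02 of CWP1. All 3 of the 5 µM CMK libraries of kin28is were at or below this level for PSA1, GAS1, CWP1 and CWP2, as were 2 of 3 for CIS3 and 1 of 3 for BGL2 and CCW14. FKS1 stayed at 3.01 to 4.85 times the unlabelled level and SED1 at 1.01 to 2.37 times. The 2 µM CMK library was above it for all 9 genes, from 11.6 times for CWP2 to 131 times for SED1. In kin28is DMSO at 5 µM the same ratios were 7.30 to 10.9 for FKS1, 3.24 to 3.90 for PSA1, 3.49 to 5.17 for GAS1 and 1.01 to 1.78 for CWP2. The nascent folds of PSA1, GAS1, CWP1 and CWP2 thus compare DMSO with a level no higher than that of the unlabelled WT library. Total RNA of these genes was higher in the unlabelled WT sample than in kin28is CMK replicate 2. In reads per 1000000 S. pombe reads it was 1639 against 135 for PSA1, 1520 against 213 for GAS1, 167 against 41.1 for CWP1 and 1779 against 410 for CWP2. How much unlabelled RNA passed the capture in CMK cells was not tested. The unlabelled level was measured in 1 library of WT cells. How many of all genes stood at or below it was not counted, so this is not shown to be particular to wall genes. All S. cerevisiae reads per S. pombe read were 0.513, 0.508 and 0.277 in CMK replicates 2 to 4, and 0.144 in the unlabelled library.

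**Figure D3:**
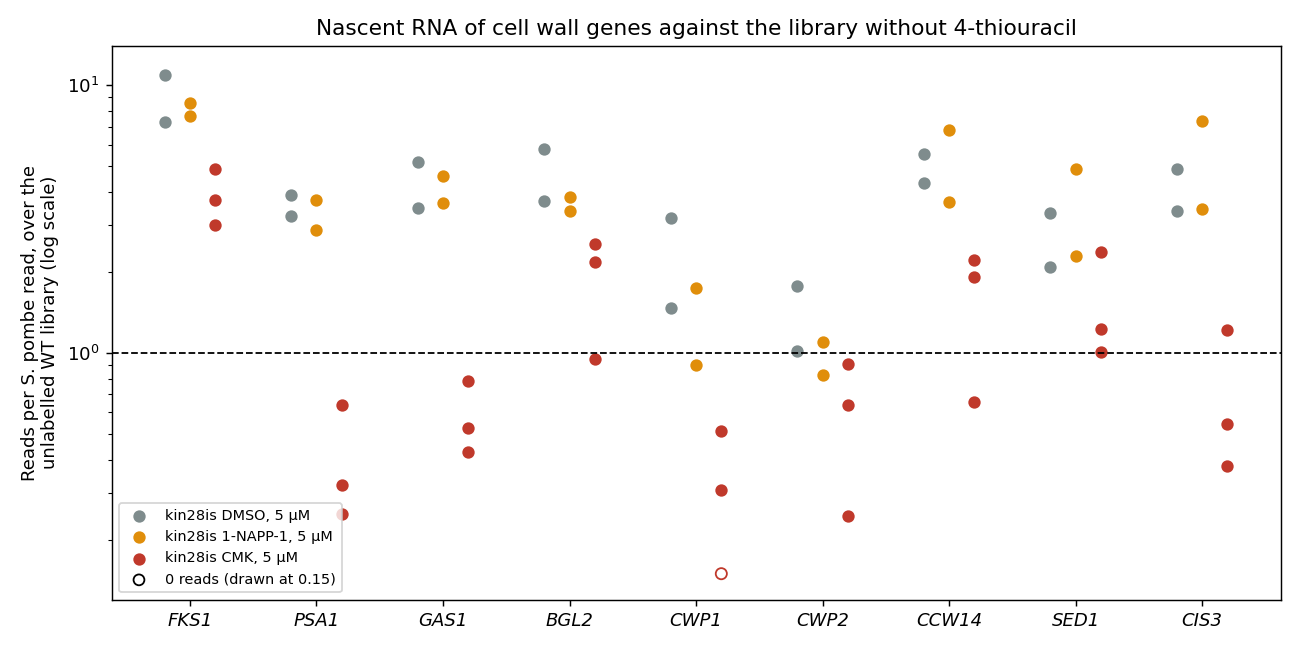
Nascent level of 9 wall genes per S. pombe read in the 5 µM kin28is libraries, divided by the level in the unlabelled WT library, on a log axis with a dashed line at 1; an open symbol is a library with 0 reads. PSA1, GAS1, CWP1 and CWP2 lie at or below the line in all 3 CMK libraries, and FKS1 lies above it in all of them. The same count was not made over all genes.

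In total RNA of kin28is with CMK, PSA1, GAS1 and CIS3 were called lower per S. pombe RNA and no wall gene higher, where 1.99% of 5220 genes were called lower and 0.307% higher and the median gene changed by 0.17 on the log2 scale. As shares, PSA1 had 648 and 522 CPM in DMSO and 184 and 99.6 in CMK (replicates 1 and 2, given 2 and 5 µM). GAS1 had 481 and 593 CPM in DMSO and 161 and 158 in CMK. CIS3 had 152 and 232 CPM in DMSO and 57.4 and 66.1 in CMK. In all 3 genes both CMK libraries were below both DMSO libraries, at each dose. How many of all genes separated in this way was not counted. The fitted falls per S. pombe RNA were 4.53-fold for PSA1 (log2 -2.18 ± 0.35; edgeR adjusted p = 2.12e-07), 3.59-fold for GAS1 (-1.84 ± 0.35; adjusted p = 4.08e-05) and 3.23-fold for CIS3 (-1.69 ± 0.43; adjusted p = 0.00788).

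The other 6 wall genes had smaller differences in total RNA and were not called. CWP2 had 274 and 662 CPM in DMSO and 186 and 303 in CMK, with a log2 change per S. pombe RNA of -0.92 ± 0.34 (edgeR adjusted p = 0.138). BGL2 was at log2 -0.53, CCW14 at -0.51, FKS1 at -0.42 and CWP1 at -0.77. SED1 had 1528 and 770 CPM in DMSO and 1808 and 1043 in CMK, higher with CMK at each dose but overlapping between groups. The fitted log2 change of SED1 per S. pombe RNA was 0.16 with a 95% interval of -0.48 to 0.79. The fit carries a term for dose set; without it 0 wall genes and 0% of all genes were called by edgeR, and 0 of 9 wall genes had an unadjusted p below 0.05. Without kin28is CMK replicate 2 only PSA1 was called. DESeq2 called 4, adding CWP2. Leaving out kin28is DMSO replicate 1 turned SED1 into a call, higher, and leaving out DMSO replicate 2 added CWP2.

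On the share scale 6 of the 9 wall genes were called lower in total RNA and none higher, where 20.3% of all genes were called lower and 18.4% higher. PSA1 (log2 -2.36 ± 0.32; edgeR adjusted p = 0.00248), GAS1 (-2.03 ± 0.29; 0.00271) and CIS3 (-1.91 ± 0.30; 0.00299) were joined by CWP2 (-1.15 ± 0.40; 0.0447), CWP1 (-0.87 ± 0.26; 0.0281) and CCW14 (-0.67 ± 0.19; 0.0223). FKS1 (-0.61, adjusted p = 0.0846), BGL2 (-0.68, 0.0714) and SED1 (0.07, 0.862) were not called. PSA1, GAS1 and CIS3 stayed called when any 1 of the 6 kin28is libraries was left out; the count was 3 without DMSO replicate 2 or CMK replicate 2.

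The inhibitors were compared at matched doses in kin28is: reversible 1-NAPP-1 and irreversible CMK, 1 pair of compounds in each RNA fraction. Each compound was set against the same DMSO libraries. No wall gene was called between 1-NAPP-1 and DMSO in nascent RNA at 5 µM (edgeR; 0 of 9 also at an unadjusted p below 0.05 and by DESeq2), where 0.134% of all genes were called. PSA1 had 434 and 334 reads per 1000000 S. pombe reads with 1-NAPP-1 at 5 µM, around the 377 and 455 of DMSO, and GAS1 had 610 and 484, around 463 and 687. The 2 µM libraries, which are not in this test, stood otherwise per S. pombe read. There PSA1 was 19.1-fold lower with 1-NAPP-1 than in DMSO (1072 against 20450.5), GAS1 12.1-fold and CIS3 25.0-fold, where the median gene changed by log2 -2.80. This was 1 library per treatment, with no test. The intervals were wide: the log2 change of PSA1 was -0.11 (95% interval -1.29 to 1.07), of GAS1 -0.07 (-1.22 to 1.09) and of CIS3 0.35 (-0.97 to 1.67). In total RNA 0 wall genes and 0% of all genes were called for 1-NAPP-1 (0 of 9 at an unadjusted p below 0.05, 0 by DESeq2). The PSA1 change there was 0.01 (-0.63 to 0.66) and that of GAS1 -0.05 (-0.71 to 0.61). Without kin28is DMSO replicate 1, SED1 was called in this comparison.

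Directly compared with 1-NAPP-1 at 5 µM, CMK gave lower nascent RNA for 7 of the 9 wall genes per S. pombe RNA, where 73.8% of all genes were called lower. The differences were -3.04 for PSA1 (95% interval -4.16 to -1.92; edgeR adjusted p = 6.02e-06), -2.83 for GAS1 (-3.91 to -1.75; 1.23e-05) and -2.92 for CIS3 (-4.20 to -1.64; 9.83e-05) on the log2 scale. CWP1, CCW14, SED1 and FKS1 were also lower, by log2 -2.31, -1.70, -1.22 and -1.06. BGL2 (-0.92, 95% interval -2.01 to 0.17) and CWP2 (-0.71, -1.87 to 0.46) were not called; without kin28is 1-NAPP-1 replicate 2 or CMK replicate 2 the count was 4. At 2 µM, with 1 library per treatment and no test, the order was the opposite. All 9 genes stood higher per S. pombe read with CMK than with 1-NAPP-1. Among them were PSA1 (7271 against 1072), GAS1 (5509 against 1165), CIS3 (944 against 148) and FKS1 (23173 against 9184). The median of all genes shifted the same way: against the 2 µM DMSO library it was at log2 -1.22 with CMK and -2.80 with 1-NAPP-1. This order is therefore not particular to the wall genes. As a share at 5 µM PSA1 alone was called (log2 -1.23 ± 0.28; adjusted p = 0.0449), where 1.13% of all genes were called lower, and GAS1 missed the threshold (-0.96 ± 0.27; 0.0826). Without CMK replicate 2 SED1 was also called on that scale, higher, and without any other of the kin28is libraries the count was 0. In total RNA 4 wall genes were lower with CMK than with 1-NAPP-1, where 3.95% of all genes were: PSA1 (-2.19, interval -2.87 to -1.51; adjusted p = 1.37e-07), GAS1 (-1.79, -2.48 to -1.11; 5.41e-05), CIS3 (-1.76, -2.60 to -0.91; 0.00311) and CWP2 (-1.38, -2.07 to -0.70; 0.0042). SED1 differed by -0.25 (-0.89 to 0.38). Without kin28is CMK replicate 2 the count was 1, and without 1-NAPP-1 replicate 2 it was 2. As shares 3 were lower (PSA1 -2.04, GAS1 -1.65 and CIS3 -1.62), where 12.1% of all genes were; the count was 0 without 1-NAPP-1 replicate 2 or CMK replicate 2, 2 without 1-NAPP-1 replicate 1 and 5 without CMK replicate 1.

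WT cells, which carry no analog-sensitive allele, gave no call for any wall gene with either compound. The nascent test had 1 WT library per treatment, at 5 µM, and took its spread from kin28is; the 95% interval of the PSA1 change with CMK ran from log2 -0.69 to 2.65. For nascent RNA 0.0768% of all genes were called with CMK and 0.0768% with 1-NAPP-1; for total RNA 0% with each (edgeR; DESeq2 called 0 of the 9 in each of the 4 comparisons). At an unadjusted p below 0.05 stood 1 wall gene in 1 of the 4, CWP2 with 1-NAPP-1 in nascent RNA (log2 2.08; adjusted p = 1). In the 2 µM WT pair, untested, 1-NAPP-1 gave 3.97-fold less nascent PSA1 per S. pombe read, where the median gene changed by log2 -1.81, and CMK gave log2 -0.22 for PSA1 at an all-gene median of -0.027. In WT total RNA PSA1 had 859 and 765 CPM with DMSO, 915 and 545 with 1-NAPP-1 and 935 and 574 with CMK. GAS1 had 507 and 711, 574 and 513, and 581 and 568 in the same order. For PSA1 the treated libraries lay on both sides of the DMSO libraries, and for GAS1 between them.

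The difference in CMK response between kin28is and WT was tested as an interaction. In nascent RNA at 5 µM, where WT had 1 library per treatment and was assumed to vary like kin28is, PSA1 was the 1 wall gene called (log2 difference -4.13 ± 1.07, 95% interval -6.22 to -2.04; edgeR adjusted p = 0.0322), where 0.269% of all genes were called lower. GAS1 was at -3.46 ± 1.03 (adjusted p = 0.101), and the median over all genes was -1.87. DESeq2 called PSA1, GAS1 and BGL2, and its share over all genes is not given here. Without kin28is DMSO replicate 2, DMSO replicate 3 or CMK replicate 3 the count was 0, and without CMK replicate 4 it was 2. In total RNA PSA1 (-2.15 ± 0.47; adjusted p = 0.00391) and GAS1 (-1.90 ± 0.48; adjusted p = 0.0293) were called, where 0.441% of all genes were. CIS3 was at -1.79 ± 0.59 (adjusted p = 0.305), and DESeq2 called it with the other two. The total RNA count was 0 without WT DMSO replicate 1, WT DMSO replicate 2 or kin28is CMK replicate 2, 3 without kin28is DMSO replicate 2, 2 without WT CMK replicate 1, and 1 (PSA1) without any other of the 12 libraries. As shares 0 wall genes were called by edgeR in either fraction (2 in nascent and 4 in total RNA had an unadjusted p below 0.05), beside 0% and 0.0192% of all genes, with PSA1 at -2.32 ± 0.49 (adjusted p = 0.35) in nascent and -2.05 ± 0.44 (0.116) in total RNA.

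After 1 h in the solvent alone, the allele gave no call. Between kin28is and WT in DMSO 0 wall genes were called in nascent RNA, where 0.423% of all genes were, and 0 in total RNA, where 0% were (edgeR). In nascent RNA 6 of 9 had an unadjusted p below 0.05 and DESeq2 called 4 (FKS1, PSA1, GAS1 and SED1). In total RNA the counts were 1 and 0. The share of all genes that passed in these ways is not given here, so the counts are not shown to be particular to wall genes. All 9 nascent values were lower in kin28is, from log2 -0.36 for CWP2 to -2.54 for CIS3, around an all-gene median of -1.26. This comparison had 1 WT library, replicate 2, of 830598 reads. Without kin28is CMK replicate 4, which enters through the shared spread, 5 were called.

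Whether CMK changed nascent and total RNA of a gene differently was tested in 1 model over 28 libraries. No wall gene and 0% of 5228 genes were called (edgeR; 0 of 9 also at an unadjusted p below 0.05). The nascent change minus the total change was log2 -0.19 ± 1.03 for PSA1, -0.37 ± 1.04 for GAS1 and -1.29 ± 1.03 for SED1, where the median of all genes was -1.69. On the share scale the signs turned, to 1.36 for PSA1, 1.24 for GAS1 and 0.56 for SED1, around an all-gene median of 0.016. There 0 wall genes and 0.0574% of all genes were called. At an unadjusted p below 0.05 stood 6 of 9 wall genes, and the share of all genes at that threshold is not given here. Per S. pombe RNA the standard errors were near 1 on the log2 scale; on the share scale that of PSA1 was 0.54 and that of FKS1 0.37.

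Pairs of treated and DMSO libraries with the same number gave the response at each dose and in kin28as, on the share scale and without a test. In total RNA PSA1 changed by log2 -1.82 at 2 µM CMK and -2.39 at 5 µM, GAS1 by -1.58 and -1.91, CIS3 by -1.40 and -1.81 and SED1 by 0.24 and 0.44. The median gene changed by 0.10 and 0.55 in these pairs, so SED1 was above it at 2 µM and below it at 5 µM. In nascent RNA 2 µM CMK gave smaller values, -0.28 for PSA1, -0.15 for GAS1 and -0.76 for CIS3, while the 2 pairs at 5 µM gave -1.10 and -1.84 for PSA1, -1.49 and -0.96 for GAS1, and -1.42 and -0.24 for CIS3. The median gene was at -0.0077 in the 2 µM pair and at 0.13 and 0.041 in the 5 µM pairs. Per S. pombe read the 2 µM nascent pair was at -1.49 for PSA1, -1.36 for GAS1 and -1.97 for CIS3, around an all-gene median of -1.22. Dose and replicate number are the same label here, so the 2 cannot be told apart.

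With 1-NAPP-1, still on the share scale, the 2 µM nascent pair of kin28is was lower for PSA1 (-1.48), CIS3 (-1.87), CWP1 (-1.40) and GAS1 (-0.83), with SED1 at 0.47. In the 5 µM pairs (replicates 2 and 3) PSA1 was at -0.55 and -0.05, CIS3 at 0.35 and -0.10, GAS1 at -0.36 and -0.11 and CWP1 at -1.46 and -0.47. The CWP1 value of replicate 2 rests on 2 reads in the shallowest nascent library, too few to set beside the 2 µM value. In the kin28as strain, with 1 library per treatment, 2 µM 1-NAPP-1 gave total RNA of 389 CPM for PSA1 against 992 in DMSO, 263 against 556 for GAS1 and 104 against 212 for CIS3. These are log2 differences of -1.35, -1.08 and -1.03, the 3 lowest of the 9 genes in this pair. BGL2 was at -0.60, CWP2 at -0.52 and SED1 at 0.21. The median gene of this pair was at 0.39, above SED1. The kin28as nascent pair gave -0.81 for PSA1, -0.60 for GAS1, -0.92 for CIS3 and 0.63 for SED1, where the median gene was at 0.11. Both kin28as differences have no replicate check.

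**Figure D4:**
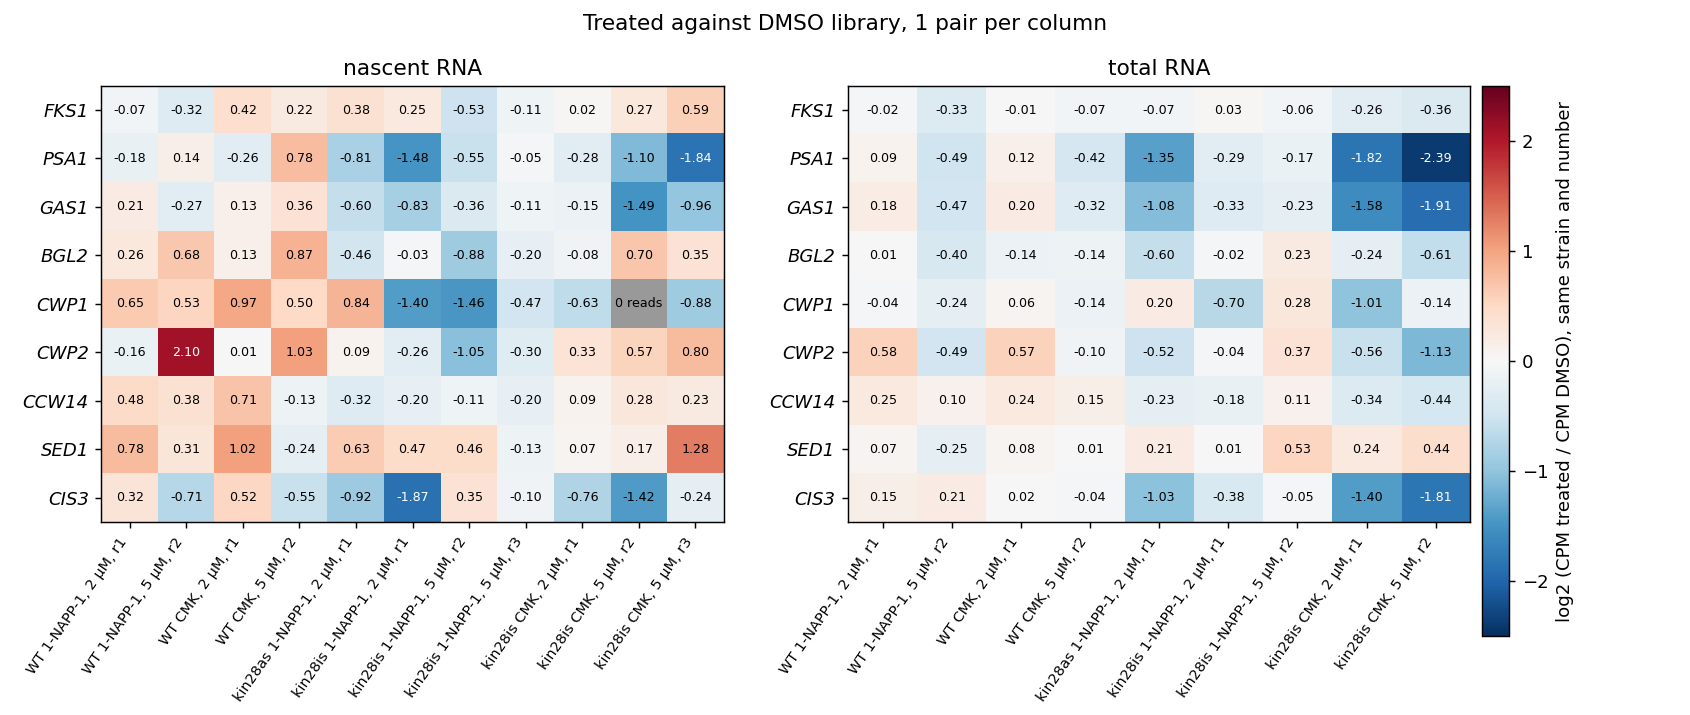
Heat map of the log2 ratio of treated over DMSO share of S. cerevisiae reads for 9 wall genes in each same-number pair, nascent and total, by strain, treatment and replicate. PSA1, GAS1 and CIS3 are the lowest of the 9 genes in both kin28is CMK pairs of total RNA (-2.39, -1.91 and -1.81 at 5 µM) and are lower with 1-NAPP-1 in kin28as.

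The rest of the wall machinery was read from lists of named genes. Per S. pombe RNA, nascent RNA of kin28is with CMK was lower for 12 of 14 tested glucan-remodelling enzymes, 5 of 5 beta-1,3-glucan synthase partners, 9 of 10 beta-1,6-glucan genes, 9 of 12 chitin genes, 19 of 21 GDP-mannose and mannan genes, 17 of 22 GPI anchor genes and 15 of 19 cell wall integrity signalling genes, and for 7 of 17 other GPI and covalently bound wall proteins, beside the 70.5% of all genes. None was called higher. The list medians ran from log2 -1.25 for the other wall proteins to -2.21 for the synthase partners, around the all-gene -1.66. The genes with the smallest p in their lists included GAS3 of the Gas1 family (log2 -3.18 ± 0.67; edgeR adjusted p = 7.39e-05), the mannosyltransferase PMT2 (-2.51 ± 0.57; 0.000222) and ECM33, a GPI protein (-2.60 ± 0.59; 0.000211). TOS6 was at log2 -3.02, SUN4 at -2.79, WSC2, a wall stress sensor, at -2.87, KRE9 at -2.62, CHS3, the main chitin synthase, at -2.22 and GPI13 at -2.06. As shares, the counts shrank to 2 lower among remodelling enzymes and 1 lower among synthase partners, with 1 higher each among other wall proteins and signalling genes and none in the other 4 lists; over all genes 2.09% were lower and 2.4% higher.

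In total RNA per S. pombe read the only list with calls was that of the other wall proteins, 3 lower and 1 higher of 17, where 1.99% of all genes were lower and 0.307% higher. ECM33 fell by 1.25 ± 0.38 on the log2 scale (edgeR adjusted p = 0.0437) and HSP150, a PIR protein like CIS3, by 1.10 ± 0.33 (0.0437). DAN4, a mannoprotein of anaerobic cells, rose by 2.14 ± 0.53 (0.00588). As shares of total RNA, 11 of 21 GDP-mannose and mannan genes were lower and 1 higher, with a median of log2 -0.57; this is the pathway that PSA1 serves. Remodelling enzymes had 6 of 14 lower and 1 higher. Signalling genes went the other way, with 9 of 19 higher and 2 lower and a median of 0.78, and GPI anchor genes had 3 of 22 higher and 0 lower. These shares stand beside 20.3% lower and 18.4% higher over all genes.

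The mean profile of the 10 wall genes over the 28 WT and kin28is libraries with 4-thiouracil, centred within each fraction as log2(CPM + 1), was followed most by GAS1 (Pearson r = 0.82), CIS3 (0.75), PSA1 (0.69) and CWP1 (0.67). CCW14 (0.37), CWP2 (0.21), BGL2 (0.18), FKS1 (0.057), SED1 (0.0072) and CCW12 (0.0058) followed it less. Each wall gene was left out of the mean it was set against, while other genes were set against the mean of all 10. Among 5100 other genes the closest profiles were those of BMH1 (0.906), RET2 (0.895), GSH2 (0.874), TEF4 (0.866) and SEC14 (0.863). These coefficients are descriptions: the libraries share strains, doses and sequencing depth.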

How the data were processed

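The deposited table holds raw read counts per gene, which the authors made for S. cerevisiae and S. pombe together; per the submitters' processing notes the tools include STAR 2.3.0, HTSeq 0.6.0 and CASAVA 1.8.2, with sacCer3 as the build, and strand use and multiple matches are not stated. Of 10533 rows, 5368 are open reading frames of S. cerevisiae and 5143 belong to S. pombe; 22 entries for repeats were left out of tests. From these counts, CPM and RPKM (coding length) were computed over S. cerevisiae reads, and edgeR 4.0.16 (R 4.3.3, limma 3.58.1) was run on all S. cerevisiae genes passing filterByExpr (minimum count 10). Library size was the S. pombe total times a TMM factor over S. pombe genes; the share scale used S. cerevisiae reads instead. Nascent tests used the 10 libraries at 5 µM (4 residual degrees of freedom), total tests 12 libraries with a dose term (5 residual degrees of freedom), and the test between fractions 28 libraries. Adjusted p is Benjamini-Hochberg over all genes tested, called below 0.05; intervals are the estimate ± 1.96 SE. DESeq2 1.42.0, other scalings, other sample sets and leaving out each library were the alternatives. Counts of wall genes by DESeq2 or at an unadjusted p stand without the share of all genes, so they are not shown to be particular to wall genes. The test was tried on simulated counts. Genes other than the wall genes were named where they had the smallest p of their list, up to 2 called genes per direction with a mean of at least 10 CPM, or the 5 closest profiles. No measured value entered the rule for the wall genes. They, all lists and the fits were still chosen with earlier results of these data known. In the lists, CCW22, TIR4, DAN1, SCW10, FKS3, CTS1 and ASG7 were not analysed here. Depth ranged from 517887 to 15568445 reads per library.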

Additional observations from a re-analysis of the deposited data

Results flagged for a closer look

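PSA1 had 523 CPM in nascent kin28is CMK replicate 1, far above the 73.5 to 145 CPM of the other 3 CMK libraries; the gap to the nearest was 0.84 of the range of the 4 libraries. That library is the one at 2 µM, so dose set and library cannot be told apart. Chance alone marks about 1 in 20 groups in this way.

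The nascent test had 1 WT library per treatment at 5 µM (WT DMSO replicate 2, 830598 reads), and its call for PSA1 was lost without kin28is DMSO replicate 2, DMSO replicate 3 or CMK replicate 3. With that limit, the CMK response differed between kin28is and WT, by the interaction test of edgeR, for PSA1 in nascent RNA (log2 difference -4.13), for PSA1 in total RNA (-2.15) and for GAS1 in total RNA (-1.90). None of the 3 was called when counts were scaled to S. cerevisiae reads.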

How the results depend on the processing

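Counts of wall genes called are given here in the order nascent CMK against DMSO, CMK against 1-NAPP-1 and the CMK response of kin28is minus WT, 8, 7 and 1 as reported. They became 2, 1 and 0 on S. cerevisiae scaling, 0, 0 and 0 with all 16 nascent libraries (no replicate block, a dose term or the replicate block), and 4, 3 and 0 with the replicate block at 5 µM. DESeq2 gave 3 for the last and 4 for kin28is against WT (0 as reported). In total RNA the 3, 4 and 2 calls became 0, 0 and 0 with no replicate block (no dose term), and the first and last became 6 and 0 on S. cerevisiae scaling. On the share scale, all 16 nascent libraries with a dose term gave 0 for both CMK comparisons; this and leaving out libraries on the share scale were chosen after seeing the data.

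Leaving out 1 library gave 2 to 8 (CMK against DMSO), 4 to 7 (against 1-NAPP-1), 0 to 5 (kin28is against WT) and 0 to 2 (response difference) in nascent RNA. In total RNA it gave 1 to 4, 1 to 4, 0 to 1 for 1-NAPP-1 against DMSO, and 0 to 3 for the response difference. On the share scale it gave 0 to 3 and 0 to 2 in nascent and 3 to 6 and 0 to 5 in total RNA for CMK against DMSO and against 1-NAPP-1.

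Signs of called values turned on S. cerevisiae scaling for FKS1 (0.51), BGL2 (0.30) and CWP2 (0.38) in nascent CMK against DMSO, and for FKS1 (0.79), CCW14 (0.083) and SED1 (0.76) against 1-NAPP-1; of those not called, SED1 (0.95) turned in the first and BGL2 (0.75) and CWP2 (0.86) in the second. That scaling sets the all-gene fall near 0 by construction. Against 1-NAPP-1, all 16 nascent libraries with no replicate block turned the called FKS1 (0.58), PSA1 (1.59), GAS1 (0.93), CWP1 (1.24), CCW14 (0.79), SED1 (0.65) and CIS3 (0.78); the cause was not tested. Of 517 alternatives for called values 350 kept the call, 154 lost it and 13 turned, and of 2534 for values not called 28 became calls.

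Deviations of same-numbered samples correlated above 0.1 in 29 of 33 nascent pairs (lowest 0.076, median 0.41) and 20 of 30 total pairs (lowest -0.21, median 0.19). Same-numbered nascent samples thus tended to deviate alike, and what they share besides the number was not tested. The main nascent fit carried no term for the number, and its counts with the replicate block are given above.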
